A study of Rattus norvegicus with 12 samples.

Results

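Long intergenic noncoding RNAs (lincRNAs) are transcripts that code for no protein and come from genes lying between protein-coding genes. The deposited expression table of rat heart gives this biotype to 548 of its 16898 genes. A lincRNA was taken as expressed where its mean over the 6 input libraries was at least 1 FPKM (reads per gene corrected for length and sequencing depth), which 203 of the 548 (37.0%) reached. These 203 lincRNAs were chosen by their mean level alone, so the levels are a description, whereas the difference between ages was not used in the choice.

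Heart tissue of Sprague Dawley rats was sampled 12 times. The older hearts gave 3 input libraries and the hearts of postnatal day 0 gave 3, and all were made from total RNA after removal of ribosomal RNA. The older hearts are 7 days old in the labels but carry 10D in the table's headers, so no exact age is claimed for them, and the columns headed OD were taken as day 0. The other 6 samples, enriched for RNA carrying N6-methyladenosine with an antibody, were not analysed here. The labels name no genetic alteration or treatment in any group, and they do not say whether a library came from 1 animal or from several.

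LincRNAs are transcribed like messenger RNAs, usually by RNA polymerase II, and many are spliced and polyadenylated. As a class they are known for lower levels, narrower tissue range and weaker conservation between species than messenger RNAs, and only a small share have a known function. Some act in the nucleus on chromatin or splicing, others bind proteins or microRNAs in the cytoplasm, and some loci matter through their act of transcription rather than through the RNA. In heart muscle, individual lncRNAs of mouse and human are known to take part in the fetal to adult change of the cardiomyocyte and in its growth.

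Of the 203 lincRNAs, 155 carry AABR07 clone names, 28 carry AC clone names, 17 carry LOC numbers, 1 has an RGD number and 2 have a gene symbol, Tug1 and Rfwd3. RefSeq's rat annotation (GRCr8) listed 13 of the 203, of which 11 are lncRNA genes there and 2 are protein-coding genes. The 2 protein-coding entries are Rfwd3, a ubiquitin ligase of DNA repair, and RGD1565989, which RefSeq now names Larp1bl. None of the clone names was found there, so most of the lincRNAs below are given by name and values, with no position or role.

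RefSeq's promoter table held 10 windows of 300 bases, 250 before and 50 after the gene start, for 9 of the 13 listed lincRNAs. In 3 of the 9, the window overlapped that of a protein-coding gene on the other strand, beside 679 of 8452 lncRNA genes (8.03%) in the whole table. These 3 are shown because they are head-to-head with a gene that the heart expresses, and the capitals mark the bases that also lie in the neighbour's window. LOC102550036 lies opposite Picalm, a clathrin assembly gene, with its window at chr1:153468886-153469185 on the minus strand of GRCr8. LOC102547954 lies opposite Lig3, a DNA ligase gene, with its window at chr10:68215060-68215359 on the minus strand. LOC100910237 lies opposite Rps12, a gene of the small ribosomal subunit, with its window at chr1:23499840-23500139 on the minus strand. Each is written 5′ to 3′ on the strand of the lincRNA.
LOC102550036: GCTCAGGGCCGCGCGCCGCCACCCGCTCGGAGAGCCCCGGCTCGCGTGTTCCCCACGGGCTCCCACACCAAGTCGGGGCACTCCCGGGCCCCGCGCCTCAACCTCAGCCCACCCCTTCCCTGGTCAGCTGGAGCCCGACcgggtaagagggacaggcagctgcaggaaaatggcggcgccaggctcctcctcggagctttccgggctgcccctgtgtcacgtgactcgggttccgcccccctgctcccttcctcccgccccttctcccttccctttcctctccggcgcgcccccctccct
LOC102547954: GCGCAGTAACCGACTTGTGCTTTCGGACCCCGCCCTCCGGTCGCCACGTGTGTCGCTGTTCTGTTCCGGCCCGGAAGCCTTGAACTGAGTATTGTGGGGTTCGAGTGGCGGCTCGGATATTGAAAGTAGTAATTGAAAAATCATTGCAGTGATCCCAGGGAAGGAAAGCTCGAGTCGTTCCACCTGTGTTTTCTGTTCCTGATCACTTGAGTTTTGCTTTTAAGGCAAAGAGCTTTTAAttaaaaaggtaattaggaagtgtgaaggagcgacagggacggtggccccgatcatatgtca
LOC100910237: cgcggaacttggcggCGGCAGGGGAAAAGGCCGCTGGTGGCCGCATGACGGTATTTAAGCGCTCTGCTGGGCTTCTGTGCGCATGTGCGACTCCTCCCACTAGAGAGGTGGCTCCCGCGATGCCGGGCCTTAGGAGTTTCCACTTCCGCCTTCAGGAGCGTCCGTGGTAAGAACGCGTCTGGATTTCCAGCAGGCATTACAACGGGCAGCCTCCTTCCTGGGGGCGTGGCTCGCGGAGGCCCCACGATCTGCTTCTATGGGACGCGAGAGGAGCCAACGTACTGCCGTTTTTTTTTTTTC
The shared stretch was 139, 239 and 285 bases long in that order. These 3 windows held 27, 18 and 27 CpG dinucleotides, against a median of 7 over the 33469 promoters of the table. The windows of the other listed lincRNAs held 17, 3, 1, 4, 5, 4 and 5, so a high count was not general among them. The motif GGGCGG, read on both strands, occurred in 5 of the 10 lincRNA windows and in 33.1% of all promoters. TATAAA occurred in 1 of the 10 windows and in 14.2% of all promoters, and CCAAT in 3 of the 10 and in 37.5%, again on both strands. Such matches describe the letters of the window only.

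Picalm, Lig3 and Rps12 stood at higher FPKM than the lincRNAs opposite them. LOC102550036 stood at 2.397, 6.75 and 4.34 FPKM in the older hearts, against 3.16, 2.62 and 8.34 FPKM at day 0. Its neighbour Picalm stood at 54.4, 55.9 and 52.7 FPKM in the older hearts, against 64.4, 73.7 and 79.5 FPKM at day 0. The lincRNA's ages overlapped and its log2 fold change was 0.00 ± 0.46 (SE, limma adjusted p = 0.9999), whereas every older library was below every day 0 library for Picalm, without passing the test (-0.41 ± 0.11, limma adjusted p = 0.0687). LOC102547954 had 0, 2.84 and 1.01 FPKM in the older hearts and 0, 1.61 and 4.402 FPKM at day 0. LOC100910237 had 0, 2.96 and 0 FPKM in the older hearts and 0.335, 5.26 and 0 FPKM at day 0. For each of these lincRNAs, libraries at 0 and libraries above 1 FPKM occurred at both ages, and the limma adjusted p was 0.845 for the first and 0.837 for the second. Lig3 (-0.52 ± 0.22) and Rps12 (-0.45 ± 0.14) did not pass either, with limma adjusted p of 0.197 and 0.0927. Whether reads were assigned by strand is not given in the sources used here, so reads of a lincRNA and of a partner overlapping it cannot be told apart.

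Library totals recovered from the deposited values were 15868418, 16097510 and 15027254 reads in the older hearts and 14613968, 13489816 and 16297533 reads at day 0. Cardiomyocyte markers dominated every library, with 9 marker genes summing to between 52955 and 62072 FPKM in the older hearts and between 63088 and 72003 FPKM at day 0. Day 0 replicate 3 stood apart. Its 5 skeletal muscle markers other than Acta1 (Myh3, Myh8, Tnnt3, Tnni2 and Mylpf) summed to 295 FPKM, against 2.94 to 5.84 FPKM in the older libraries and 2.55 and 4.25 FPKM in the other day 0 libraries, and Sftpc, a lung epithelium gene, was read only there, at 23.1 FPKM. Counts are therefore also given without that library. The 8 fibroblast markers, 6 of which rose, summed to between 1907 and 2069 FPKM in the older hearts and between 790 and 1167 FPKM at day 0, and the part of cell make-up in the lincRNA differences below was not tested. In such bulk tissue, fewer cells of a type and less RNA per cell cannot be told apart.

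The lincRNA signal of the heart was concentrated in 3 genes with the same clone name. AC134224.1, AC134224.2 and AC134224.3 together held 95.7% of all reads in the 203 lincRNAs. Over the libraries the 203 lincRNAs took 3.38, 2.58 and 2.46% of reads in the older hearts, against 2.49, 2.37 and 2.42% at day 0. The AC134224 genes alone took 3.27, 2.48 and 2.36% in the older hearts, against 2.36, 2.25 and 2.29% at day 0. Older replicate 1 was high in both sums and the other 5 libraries lay close together. The other 200 lincRNAs shared 0.117, 0.0963 and 0.1005% of reads in the older hearts, against 0.128, 0.121 and 0.123% at day 0. All 3 older libraries were below all 3 day 0 libraries in this last share, which averaged 0.105 ± 0.0108% and 0.124 ± 0.00355% (SD, n = 3 each) and was not tested. It uses unscaled library totals. The voom fit below scaled the totals by 0.952 to 0.961 in the older libraries and by 1.037 to 1.055 at day 0. With totals scaled in this way, older replicate 1 lies above day 0 replicates 2 and 3 and the ages overlap. The separation therefore holds for unscaled totals only.

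**Figure D1:**
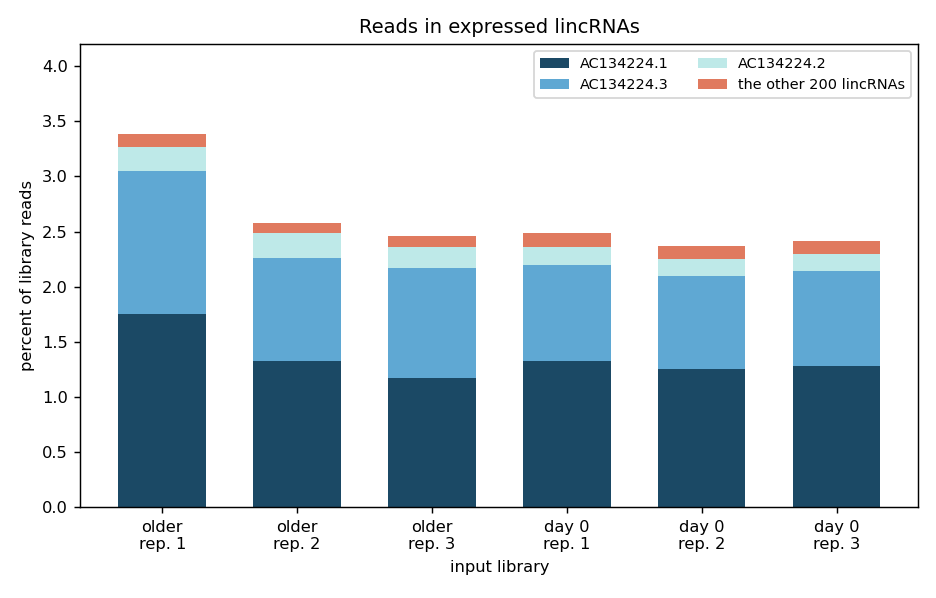
Share of each library's reads that fell in the 203 expressed lincRNAs, in percent, for the 3 older and the 3 day 0 input libraries, stacked by gene. AC134224.1, AC134224.2 and AC134224.3 fill most of every bar, and older replicate 1 reaches 3.38% where the other 5 libraries lie between 2.37% and 2.58%.

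AC134224.3 had the highest mean of all lincRNAs. Its FPKM was 18652, 13398 and 14254 in the older hearts, against 12497, 12109.6 and 12383 at day 0. Every older library was above every day 0 library, but the spread among the older libraries was wide and the log2 fold change of 0.31 ± 0.15 (SE) did not pass (limma adjusted p = 0.246), and with quantile normalization it was -0.11. Voom on recovered reads gave 0.43 with an adjusted p of 0.00574, and the authors' deposited table gives 0.44 with an adjusted p of 0.00119. AC134224.1 had 7461, 5652 and 5000.4 FPKM in the older hearts, against 5649.8, 5343 and 5456 FPKM at day 0. Its ages overlapped, older replicate 1 alone was high, and the log2 fold change was 0.12 ± 0.16 (SE, limma adjusted p = 0.679), or -0.044 without older replicate 1 and -0.039 with quantile normalization. AC134224.2 rose, with 3074, 3147 and 2761 FPKM in the older hearts, against 2281, 2114 and 2114 FPKM at day 0. The ages did not overlap, the log2 fold change was 0.46 ± 0.10 (SE), with a limma adjusted p of 0.0298, but no fit with 1 library left out kept the call (adjusted p up to 0.131). Older replicate 1 was also the library with the highest erythroid sum, 5614 FPKM, against 3783 and 2369 FPKM in the other older libraries and 2649 to 3146 FPKM at day 0, and the part of blood in these values was not tested. The table does not tell whether the 3 genes overlap or share reads, so their separate values are uncertain.

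Below this clone the level dropped in steps. AABR07039356.2 followed with 443, 372 and 215 FPKM in the older hearts and 448, 398 and 369.8 FPKM at day 0, overlapping between ages (log2 fold change -0.30 ± 0.25 SE, limma adjusted p = 0.5000). AC134224.2 had 6.90 times the mean of AABR07039356.2, which had 9.32 times that of the next lincRNA, LOC100912578. LOC100912578 had 27.3, 17.1 and 38.7 FPKM in the older hearts, against 53.3, 41.8 and 62.9 FPKM at day 0. Its older libraries were all below the day 0 libraries, although the difference of -0.96 ± 0.29 (SE) missed the threshold (limma adjusted p = 0.0839), and the authors' deposited table gives -0.82 with an adjusted p of 0.0145. LOC108349594 stood at 44.8, 35.6 and 31.7 FPKM in the older hearts and at 27.4, 32.6 and 43.05 FPKM at day 0, with overlapping ages (0.13 ± 0.20 SE, limma adjusted p = 0.7301). Among the 12 highest lincRNAs, AABR07025387.1 (24.98 ± 3.398 FPKM in the older hearts and 37.2 ± 14.9 FPKM at day 0; SD, n = 3 each) and AABR07072602.1 (14.3 ± 4.56 FPKM in the older hearts and 24.4 ± 8.59 FPKM at day 0) also overlapped between ages. Beside AC134224.2, 4 of the 12 passed the test and are described below. The 12 together held 97.5% of the reads in lincRNAs. The median lincRNA had a mean of 2.17 FPKM and 171 reads over all 6 libraries, and 90 of the 203 lay between 1 and 2 FPKM.

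Compared with protein-coding genes tested on the same scale, the lincRNAs were short, thinly read and variable. Their median gene length as implied by the FPKM steps was 709 bases, against 2275 bases for the 11746 protein-coding genes whose mean reached 1 FPKM. Reads were present in every library for 113 of the 203 lincRNAs (55.7%) and for 96.5% of these protein-coding genes. Under a mean of 5 FPKM the shares were 46.3% of 162 lincRNAs and 88.6% of 3323 protein-coding genes. The median SD within an age, on the log2(FPKM + 1) scale, was 0.70 for the lincRNAs and 0.28 for protein-coding genes, and under 5 FPKM it was 0.76 and 0.44. Genes under 5 FPKM were not matched in reads, at a median of 124.5 for lincRNAs and 521 for protein-coding genes. The part of read depth in these differences was not tested. More than 50% of the summed FPKM came from 1 library for 55 lincRNAs (27.1%), and for 33.3% of those under 5 FPKM beside 5.30% of protein-coding genes under 5 FPKM. These shares describe the set, and no test was made of them.

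Single libraries carried some of the lincRNAs that reached 1 FPKM. In 12 lincRNAs more than 80% of the summed FPKM came from 1 library, and in 6 of the 12 this was day 0 replicate 3. Of the 12, 6 were read in 1 library only, 4 of them in day 0 replicate 3. The highest of these was AABR07019155.1, at 17.3 FPKM (82 reads) in day 0 replicate 3 and 0 in the other 5 libraries. LOC102546383, which RefSeq places between Dsp, the desmosome gene, and Riok1, was read only in the same library, at 6.399 FPKM. AABR07058804.1 stood at 6.503 FPKM in older replicate 1 and at 0 elsewhere. Such genes reached the mean through 1 library, and whether the muscle and lung markers of day 0 replicate 3 go with these reads was not tested. Of all 203, the highest library was one of the 3 older libraries for 32, 20 and 20 lincRNAs, against 40, 44 and 47 for the 3 day 0 libraries. These were 15.8, 9.85 and 9.85% of the lincRNAs in the older libraries and 19.7, 21.7 and 23.2% in the day 0 libraries, close to the 13.7, 11.7 and 11.5% of all genes in the older libraries and 16.3, 21.3 and 25.5% in the day 0 libraries.

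**Figure D2:**
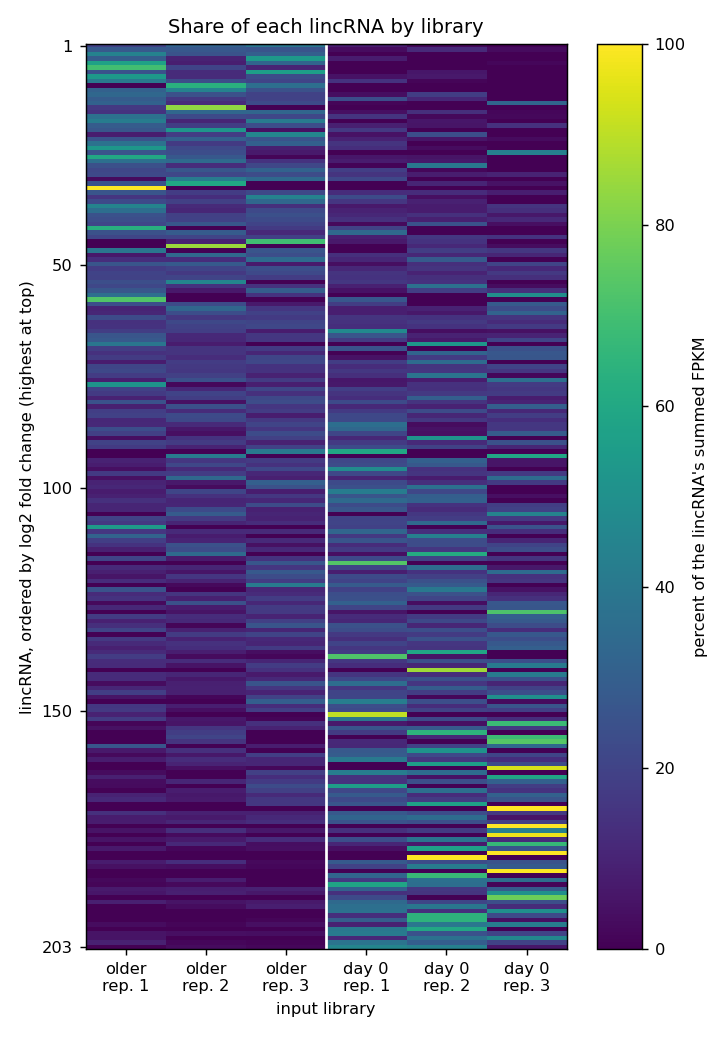
Percent of each lincRNA's summed FPKM found in each input library (colour), with the 203 expressed lincRNAs in rows from the highest to the lowest log2 fold change and the 3 older libraries left of the 3 day 0 libraries. Bright single cells mark the 12 lincRNAs with over 80% in 1 library, 6 of them in day 0 replicate 3.

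The comparison of ages asks which lincRNA levels differ between older and newborn hearts. limma, fitted on log2(FPKM + 1) over all 13117 genes that reached a mean of 1 FPKM, called 7 lincRNAs higher and 7 lower in the older hearts at an adjusted p under 0.05. That is 3.45% of the 203 in each direction, where the same test called 3.52% of all genes higher and 5.73% lower, and 9.26% in either direction. On this scale the lincRNA shares were close to the background for higher and below it for lower, and these counts are not a result about lincRNAs as a class. An unadjusted p under 0.05 was reached by 46 of the 203 (22.7%), beside 25.9% of all genes. The median log2 fold change was -0.25 over the lincRNAs and -0.11 over all genes, with 82 lincRNAs above 0 and 121 below. The share above 0 was 40.4% of lincRNAs and 41.4% of all genes. Centred on the median gene, 7 lincRNAs were higher and 5 lower (3.45% and 2.46%), where 617 and 464 of all genes were (4.70% and 3.54%), so that both shares lay below those of all genes. The medians were then -0.13 for lincRNAs and 0.01 for all genes. With voom on recovered reads the split was 8 higher and 3 lower, where all genes had 958 higher and 694 lower instead of 462 and 752. The labels do not say that the libraries came from separate animals, so a p-value here reflects the spread among these 6 libraries, part of which may be technical.

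The calls lay among the better measured lincRNAs. Of the 41 lincRNAs with a mean of at least 5 FPKM 6 rose and 6 fell, whereas of the 162 under 5 FPKM 1 rose and 1 fell. The share called was 29.3% of the lincRNAs and 12.7% of the 8423 protein-coding genes at 5 FPKM or more, and 1.23% of the lincRNAs and 2.47% of the 3323 protein-coding genes under 5 FPKM. These differences were not tested, and the higher band holds 12 called lincRNAs. The 124 lincRNAs with at least 1 FPKM at both ages held 6 of the higher and 6 of the lower calls. The 31 that reached 1 FPKM in the older hearts only held 1 higher call, and the 48 that did so at day 0 only held 1 lower call. Those last 2 sets had to differ, since they reached the mean through 1 age. For 28 lincRNAs every older library was above every day 0 library and for 28 every one was below, 13.8% each, where 12.2% of all genes were above and 20.3% below.

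**Figure D3:**
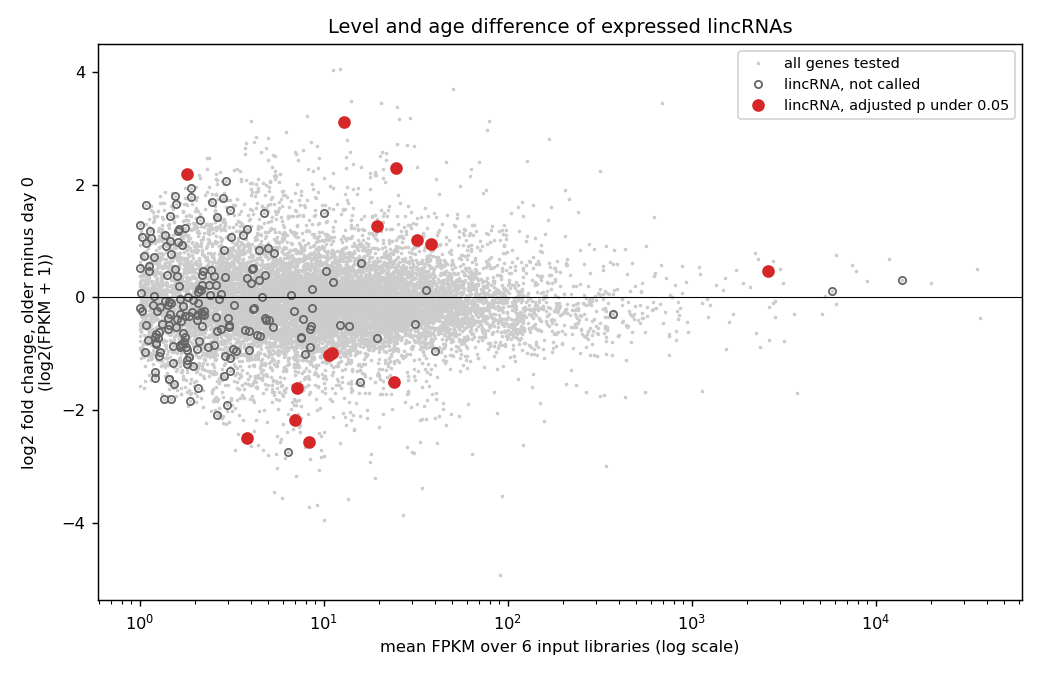
Log2 fold change, older minus day 0 on the log2(FPKM + 1) scale, against mean FPKM over the 6 input libraries (log axis), with all 13117 genes in grey, the 189 lincRNAs not called as open circles and the 14 called lincRNAs in red. The red points lie mostly above 5 FPKM, 7 above and 7 below the line at 0, and the leftmost is AABR07067401.2, drawn at its fitted value, which is no bound, since no day 0 library held reads of it.

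Among the lincRNAs that rose, AABR07005985.3 had the highest log2 fold change of the 6 with reads at day 0. It stood at 14.9, 24.3 and 30.3 FPKM in the older hearts, against 6.17, 1.75 and 0 FPKM at day 0. The older libraries were all higher, by 3.10 ± 0.66 on the log2 scale (SE, limma adjusted p = 0.0300, or 0.0846 with a pseudocount of 0.1). The authors' deposited table gives this lincRNA an adjusted p of 0.175. AABR07001555.1 had 41.3, 40.9 and 38.6 FPKM in the older hearts, against 4.94, 17.5 and 4.43 FPKM at day 0. The older libraries were close to each other, day 0 replicate 2 was the high one of its age, and the difference was 2.29 ± 0.44 (SE, limma adjusted p = 0.0206). With 1 library left out, the adjusted p was up to 0.119 for AABR07005985.3 and up to 0.0950 for AABR07001555.1.

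AABR07067401.2 was read only in the older hearts. It had 4.804, 2.79 and 3.28 FPKM there and 0 in all 3 libraries of day 0, from 38 reads in all, the fewest of any called lincRNA. The older mean was at least 3.96-fold higher than 3 reads per day 0 library would give (limma adjusted p = 0.0176, or up to 0.0626 with 1 library left out). It reached the mean through the older hearts alone. AABR07052523.2 had 33.6, 21.1 and 27.6 FPKM in the older hearts, against 10.3, 6.72 and 16.8 FPKM at day 0. Its groups did not overlap and differed by 1.27 ± 0.32 (SE, limma adjusted p = 0.0490, up to 0.173 with 1 library left out).

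AC125982.2 and AABR07072236.1 are both among the 12 highest lincRNAs. AC125982.2 had 42.7, 41.2 and 44.5 FPKM in the older hearts, against 29.2, 15.5 and 19.2 FPKM at day 0. AABR07072236.1 had 60.7, 41.2 and 49.9 FPKM in the older hearts, against 29.2, 29.1 and 19.5 FPKM at day 0. Both kept their ages apart, at log2 differences of 1.02 ± 0.22 (SE, limma adjusted p = 0.0305) for AC125982.2 and 0.95 ± 0.21 (SE, limma adjusted p = 0.0332) for AABR07072236.1. The seventh, AC134224.2, is given above. With 1 library left out, the adjusted p was up to 0.112 for AC125982.2 and up to 0.117 for AABR07072236.1.

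Of the 7 lincRNAs that fell, AC119762.7 had the lowest adjusted p. It stood at 2.22, 1.73 and 1.48 FPKM in the older hearts, against 17.4, 10.6 and 8.52 FPKM at day 0. The lowest day 0 library was well above the highest older library, and the log2 fold change was -2.18 ± 0.30 (SE, limma adjusted p = 0.00691). It was the only called lincRNA that passed in all 6 fits with 1 library left out (adjusted p up to 0.0441), although voom on recovered reads gave 0.0689. AABR07026002.2 had 3.801, 2.296 and 2.98 FPKM in the older hearts, against 14.6, 8.94 and 10.3 FPKM at day 0. Its ages did not overlap, and the log2 fold change was -1.60 ± 0.26 (SE, limma adjusted p = 0.0127, up to 0.0624 with 1 library left out). Voom on recovered reads gave an adjusted p of 0.146.

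AABR07030834.1 and AABR07049695.4 had the lowest log2 fold changes of the called lincRNAs. AABR07030834.1 had 4.63, 0.912 and 0.533 FPKM in the older hearts, against 19.2, 14.8 and 9.83 FPKM at day 0 (-2.57 ± 0.51 SE, limma adjusted p = 0.0230, up to 0.102 with 1 library left out). AABR07049695.4 had 1.21, 0 and 0 FPKM in the older hearts, against 2.62, 8.53 and 10.6 FPKM at day 0 (-2.50 ± 0.56 SE, limma adjusted p = 0.0346, up to 0.122). In the first, older replicate 1 was the high library of its age, and in the second it was the only older library with reads. AABR07049695.4 reached 1 FPKM at day 0 only.

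AABR07040629.1 was the highest of the lincRNAs that fell. It had 10.2, 11.96 and 13.6 FPKM in the older hearts, against 44.4, 23.5 and 41.4 FPKM at day 0, with day 0 replicate 2 the low one (-1.49 ± 0.25 SE, limma adjusted p = 0.0143, up to 0.0704 with 1 library left out). AABR07058158.1 had 4.94, 6.91 and 8.43 FPKM in the older hearts, against 16.3, 15.3 and 11.99 FPKM at day 0. AABR07025385.1 had 9.07, 6.03 and 6.04 FPKM in the older hearts, against 18.4, 15.6 and 11.1 FPKM at day 0. Both kept their ages apart and fell to about the same extent, by 1.02 (SE 0.23, limma adjusted p = 0.0367) for AABR07058158.1 and by 0.99 (SE 0.25, limma adjusted p = 0.0489) for AABR07025385.1. With 1 library left out the adjusted p was up to 0.122 for AABR07058158.1 and up to 0.163 for AABR07025385.1.

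**Figure D4:**
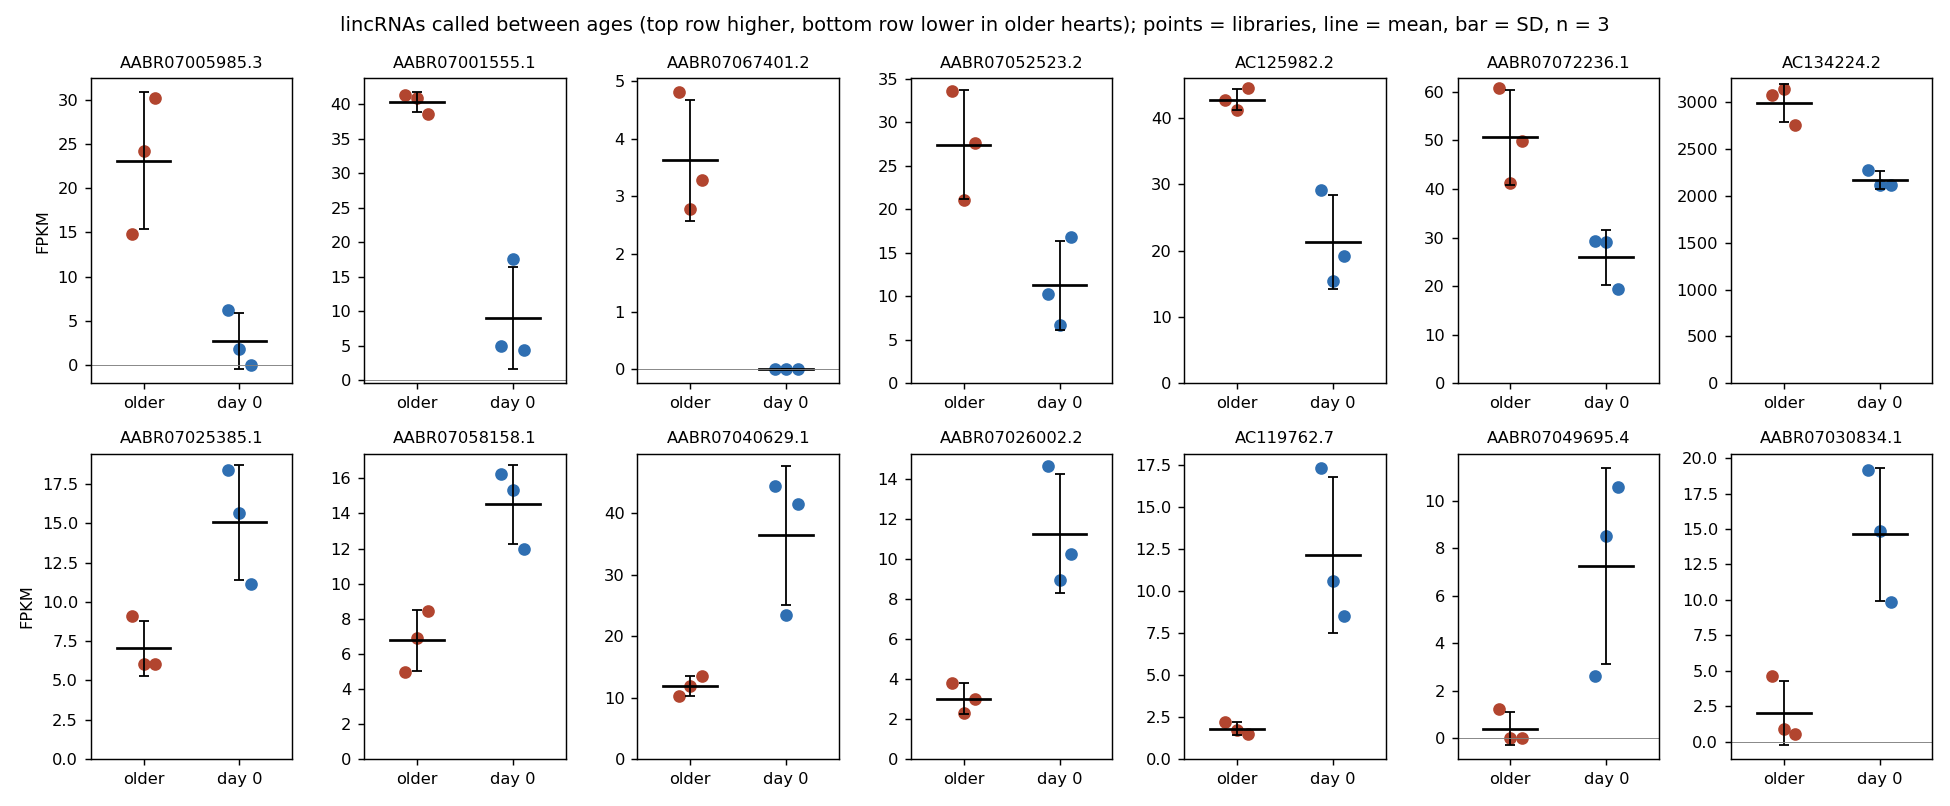
FPKM of the 14 called lincRNAs in the 3 older and the 3 day 0 input libraries, with each point a library, the line the mean and the bar the SD (n = 3), on a separate linear axis per gene. In all 14 panels the points of the 2 ages do not overlap, with the 7 higher genes in the top row and the 7 lower genes in the bottom row.

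Most of these calls rested on having all 6 libraries. Of the 14 called lincRNAs, 3 were kept without older replicate 1, 1 without older replicate 2 and 1 without older replicate 3. The other fits kept 5 without day 0 replicate 1, 5 without day 0 replicate 2 and 9 without day 0 replicate 3. Without day 0 replicate 3 the test called 5 lincRNAs higher and 14 lower, and over all genes it called 484 higher and 646 lower. One lincRNA called without it but not with all 6 libraries, chosen after its values were seen, was AABR07047256.1. It had 3.69, 3.46 and 5.38 FPKM in the older hearts, against 15.2, 16.7 and 2.73 FPKM at day 0. Day 0 replicate 3 was below all older libraries, while the other day 0 libraries were higher than all of them.

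The authors' deposited table gives its own test. At its adjusted p under 0.05 it holds 10 of the lincRNAs as higher and 14 as lower, beside 7.62% of all 13117 genes higher and 6.75% lower. Of these 24 lincRNAs 9 were also called by limma in the same direction (37.5% of the 24 and 64.3% of the 14), 15 were called by the authors' table only and 5 by limma only. Those 5 did not pass the authors' test. Its adjusted p was 0.175 for AABR07005985.3, 0.138 for AC125982.2 and 0.0745 for AABR07067401.2, which rose. For AABR07058158.1 and AABR07026002.2, which fell, it was 0.102 and 0.0650. Among the 15 is AABR07021456.1, named after its values were seen, with 0, 1.17 and 0.681 FPKM in the older hearts, against 17.5, 16.7 and 2.304 FPKM at day 0. Its ages did not overlap, day 0 replicate 3 was far below the rest of its age, and limma gave an adjusted p of 0.0516.

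In 7 lincRNAs every library of one age had reads and the lowest was at least 4 times the highest of the other age as listed, beside 102 of all 13117 genes (0.778%). In 5 of the 7 the other age was listed at 0 throughout, where no ratio is defined. With each library at 0 set to 3 reads, 2 of the 7 met the limit, AABR07055191.1 and AC139608.1, beside 82 of all genes (0.625%). All 7 had a mean under 1 FPKM at one age, so they entered the set through the other age and had to differ. AABR07067401.2 is one of them and the only one called. AABR07035868.1 stood at 6.53, 0.947 and 3.65 FPKM in the older hearts, against 0, 0 and 0.187 FPKM at day 0 (limma adjusted p = 0.0753). AABR07010868.1 had 6.47, 1.87 and 0.937 FPKM in the older hearts and 0 in all day 0 libraries, an older mean at least 7.54-fold higher than 3 reads per day 0 library would give (limma adjusted p = 0.102). Each of these was unevenly read among the older libraries, with older replicate 1 the highest. AABR07058805.1 had 2.01, 2.85 and 1.59 FPKM in the older hearts and 0 in all day 0 libraries, at least 5.29-fold higher on the same floor (limma adjusted p = 0.0592).

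In the opposite direction, AABR07055191.1 was at 0 in all older libraries and at 1.15, 5.69 and 1.99 FPKM at day 0. Its older level was at least 12.8-fold lower than the day 0 mean, with 3 reads per older library as the floor (limma adjusted p = 0.0803). AC095563.1 was at 0 in all older libraries and at 2.997, 1.08 and 4.03 FPKM at day 0 (limma adjusted p = 0.0641). Its recovered reads, 17 as the smallest whole numbers that fit, may be understated. With these reads the older level was at least 1.93-fold lower. AC139608.1 had 0.328, 0.259 and 0.139 FPKM in the older hearts, against 1.43, 3.01 and 2.05 FPKM at day 0 (-1.32 ± 0.42 SE, limma adjusted p = 0.0968). Altogether 10 of the 203 lincRNAs were at 0 in every older library and 6 at 0 in every day 0 library, beside 103 and 88 of all 13117 genes. Of the 10, 5 were read in 1 library only, as was 1 of the 6. A gene at 0 was not detected at this depth, and 1 read in a gene of 1 kb was worth 0.0614 to 0.0741 FPKM.

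Tug1 was the only expressed lincRNA found among 101 symbols of well known lncRNAs. Tug1, first described in mouse for its rise after taurine treatment of retinal cells, is a broadly expressed lncRNA linked to gene silencing in the nucleus. It had 2.78, 1.64 and 3.01 FPKM in the older hearts and 2.69, 1.998 and 2.31 FPKM at day 0. The ages overlapped, at a log2 fold change of 0.04 ± 0.32 (SE, limma adjusted p = 0.947) with a 95% interval from -0.70 to 0.79. RefSeq places Tug1 between Smtn and Morc2, and neither passed the test (limma adjusted p of 0.269 and 0.298). Of the listed symbols 4 were in the table, Tug1 as a lincRNA and 3 under another biotype, of which Ppp1r1b is a protein-coding gene whose symbol a lncRNA of that locus shares, so no value is given. Rpph1, the RNA of the RNase P enzyme, was listed as a ribozyme, with 2240.3, 2436 and 2823 FPKM in the older hearts, against 3096, 3622 and 2823 FPKM at day 0 (-0.35 ± 0.14 SE, limma adjusted p = 0.159). Snhg11, named as a host gene of small nucleolar RNAs, was listed as protein-coding and stayed under 1 FPKM in every library. The other listed symbols, with all 16 imprinted lncRNAs and all 7 of the X inactivation centre, were not analysed here.

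None of the 13 lincRNAs that RefSeq lists passed the test, where 9.26% of all genes did. With only 13 genes this is not a result about listed lincRNAs. The neighbours given here were looked up after the values were seen. LOC102551356, which RefSeq places next to Pmaip1, a gene that promotes cell death, had 0, 0.401 and 1.06 FPKM in the older hearts, against 4.53, 4.85 and 1.53 FPKM at day 0. Its ages did not overlap, but at -1.61 ± 0.49 (SE) the limma adjusted p was 0.0870, while the authors' deposited table gives an adjusted p of 0.0277. LOC102550392 had 6.198, 4.597 and 3.63 FPKM in the older hearts, against 0.666, 3.39 and 0 FPKM at day 0, again with the ages apart (1.56 ± 0.55 SE, limma adjusted p = 0.129). LOC102549726, between the heat shock gene Hspa1b and the sialidase gene Neu1, had 9.695, 2.92 and 5.90 FPKM in the older hearts and 2.59, 2.03 and 3.60 FPKM at day 0. One older library was high and the ages overlapped (0.84 ± 0.40 SE, limma adjusted p = 0.237). LOC108349943, between the phosphodiesterase gene Pde4d and Rab3c, had 0.0585, 0.864 and 2.04 FPKM in the older hearts and 2.29, 3.92 and 1.59 FPKM at day 0. It overlapped between ages (-0.94 ± 0.50 SE, limma adjusted p = 0.2903), and Pde4d itself had every older library below every day 0 library without passing (-0.67 ± 0.19 SE, limma adjusted p = 0.0753). LOC100909912, between Zmynd8 and Ncoa3, both genes of transcriptional regulators, had 0.611, 2.11 and 3.26 FPKM in the older hearts and 2.73, 4.63 and 5.95 FPKM at day 0. Its ages overlapped as well (-0.92 ± 0.44 SE, limma adjusted p = 0.239).

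Rfwd3 had 3.73, 1.32 and 2.69 FPKM in the older hearts and 4.03, 3.605 and 2.74 FPKM at day 0. Its ages overlapped (-0.37 ± 0.35 SE, limma adjusted p = 0.556), and since RefSeq lists it as protein-coding, the source of its reads is uncertain. At the lower limit of the set, AABR07037927.1, AABR07022055.1 and AABR07008099.2 were just inside with means of 1.005, 1.004 and 1.002 FPKM. AABR07061902.2, LOC103690095 and AABR07029351.1 were just outside with 0.991, 0.988 and 0.971 FPKM. AABR07037927.1 owed most of its mean to older replicate 2, at 5.13 FPKM beside 0 in the other older libraries and at most 0.706 FPKM at day 0.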

How the data were processed

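Input RNA of 6 rat heart libraries, 3 per age, was analysed from the gene table that the authors deposited, whose FPKM values are reads per gene scaled by gene length and library total. Per the submitters' processing notes, HISAT2, HOMER 4.10 and the build rn5 were used, with no role given; the counter, annotation, strand setting and test are not stated there or in the labels. Clone names in the table fit a later assembly, so none of its coordinates is printed. The deposited table also holds log2 fold changes and adjusted p-values of the authors' own test.

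Within each gene the FPKM values were whole multiples of 1 read, and whole reads were recovered for 100% of 16898 genes at a relative tolerance of 1e-11. Reads and lengths could share a common factor, so the recovered reads are the smallest that fit. The implied length was under 200 bases for 13 of the lincRNAs, whose reads may be understated. Without molecular identifiers, reads may include copies of the same fragment, so counting error is only a part of their error. Levels were tested with limma 3.58.1 in R 4.3.3 on log2(FPKM + 1), by lmFit and eBayes with a trend, and p-values were adjusted by Benjamini and Hochberg's method (threshold 0.05) over the 13117 genes whose mean reached 1 FPKM. Log2 fold changes are older minus day 0 and understate changes of low genes. Tested on simulated reads for this comparison, the fit called 30 of 98 genes changed 2-fold and 97 of 98 changed 4-fold among 13089 genes. The changed genes were drawn from all genes tested, with the same dispersion for every gene. The lincRNAs had fewer reads (median 171, against 1800 over all genes) and a wider SD within an age (0.70 against 0.30). These shares were therefore not measured for lincRNAs.

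The lincRNAs and lists were chosen with earlier results of these data known. Named lincRNAs were the called ones, the 12 with the highest mean, those in lncRNA lists or with a gene symbol, 3 on either side of the 1 FPKM limit, and up to 6 whose listed values lay at least 4 times apart between ages; others were named after their values were seen. Promoter windows and neighbours are from RefSeq (GRCr8), for the listed lincRNAs rather than the called ones, none of which RefSeq lists by these names. Alternatives were a pseudocount of 0.1, no filter on low values, centring, quantile normalization, voom on recovered reads, a replicate block, each library left out, the authors' test, 1 FPKM at each age, and leaving out the highest lincRNA.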

Additional observations from a re-analysis of the deposited data

How the results depend on the processing

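The count of 7 higher lincRNAs was 5 with a pseudocount of 0.1, 6 with no filter on low values, 6 with 1 FPKM required at each age, 7 after centring or quantile normalization, 8 with voom and 10 in the authors' deposited table. With 1 library left out it lay between 0 and 5. The count of 7 lower lincRNAs was 7 with a pseudocount of 0.1 or no filter, 6 with 1 FPKM at each age, 5 after centring, 6 after quantile normalization, 3 with voom and 14 in the authors' deposited table, and between 1 and 14 with 1 library left out. The fit with a replicate block called 1 higher and 5 lower. Deviations of same-numbered libraries of the 2 ages correlated at only -0.036, -0.0033 and -0.050, and no library correlated best with its own number. No pairing by number was thus seen, but with 3 libraries per age these values cannot exclude one. The cause of these changes was not tested, beyond the fewer samples of each left-out fit. Of the 14 called lincRNAs 12 were kept with a pseudocount of 0.1, 10 with no filter, 12 after centring, 12 after quantile normalization and 6 with voom. Of the 7 that fell, voom kept only AABR07030834.1 (adjusted p = 0.0286). Of the 7 that rose, it lost AABR07067401.2 (adjusted p = 0.0966) and AC125982.2 (adjusted p = 0.137).

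Among the named lincRNAs no called one changed sign in any of these fits, and those that did were not called. With quantile normalization AC134224.3 turned to -0.11 and AC134224.1 to -0.039. With 1 library left out, AC134224.1 lay between -0.044 (without older replicate 1) and 0.24, AABR07039356.2 between -0.51 and 0.0073 (without older replicate 3), and AABR07037927.1 between -0.34 (without older replicate 2) and 0.97. LOC108349594 lay between -0.018 (without day 0 replicate 1) and 0.30 and was also below 0 without older replicate 1, at -0.0070. Tug1 lay between -0.072 (without older replicate 3) and 0.23 and was also below 0 without older replicate 1 (-0.029) and without day 0 replicate 2 (-0.030). AABR07008099.2 was at 0.14 with a pseudocount of 0.1 and at 0.26 with voom, and lay between -0.67 and 0.32 (without day 0 replicate 1), with 0.034 without older replicate 1. Leaving out AC134224.3, the reads in lincRNAs averaged 1.74% in the older hearts and 1.57% at day 0. Depth limits the 27 lincRNAs with fewer than 50 recovered reads in all, and 21 had fewer than any called one. Both counts rest on the smallest whole reads that fit and may be too high.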
